A study of Gallus gallus with 14 samples.

Results

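Autosomal noncoding RNA genes of the chick retina were taken as the rows of the deposited gene table whose feature key is ncRNA and whose sequence is neither W nor Z, the sex chromosomes of birds. This gave 3315 of 18631 rows. Another 185 ncRNA rows on Z and 9 on W were left out. The retinas came from wild type White Leghorn chickens: 7 libraries were from eyes behind -10 D lenses, which place the image behind the retina, worn for 3 days, and 7 were labelled control retinas. The protocol has lenses fitted at 3 days of age, and every sample is labelled with that age. Libraries were stranded total RNA libraries depleted of ribosomal RNA, so transcripts without a poly(A) tail could be captured.

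Noncoding RNA genes fall into a structured class and a long class. Structured RNAs include the RNA core of the signal recognition particle, which steers secretory proteins to the endoplasmic reticulum, the small nuclear RNAs of the spliceosome and the small nucleolar RNAs (snoRNAs), which guide modification of other RNAs and are mostly cut out of introns of host genes. Long noncoding RNAs (lncRNAs) are transcribed like messenger RNAs, are usually present at lower levels, and often start beside, or run across, a coding gene. In neural tissue many of them are restricted to a cell type.

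Values are CPM, read counts scaled to the library total. The CPM step worth 1 read implied 30.8 to 41.4 M reads per library, and 3 reads corresponded to 0.0724 to 0.0973 CPM. Limits of this kind cover counting error only. Of 17 retinal marker genes 15 were in the table and all 15 were tested, with summed levels of 1292 to 1537 CPM in lens libraries and 1444 to 1674 CPM in control libraries. Microglial markers (4 of 4 tested) summed to 3.15 to 5.22 CPM in lens libraries and 3.56 to 6.27 CPM in control libraries. Pigment epithelium markers (3 of 6 tested) summed to 1.34 to 5.38 CPM in lens libraries and 2.77 to 7.58 CPM in control libraries. HINTW, a W-linked gene that marks female birds, was present in 1 of 7 lens and 4 of 7 control libraries. A change of level in whole retina cannot tell fewer cells of a type from less RNA per cell. No label says that samples of a group came from separate birds, so p-values measure the spread between these samples, which may in part be technical.

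The RefSeq gene table of the newer GRCg7b assembly matched 1760 of the 3315 symbols (53.1%). It classed 1549 of them as lncRNA, 70 as snoRNA, 29 as small nuclear RNA, 11 as other small ncRNA, 14 as miscellaneous RNA and 2 as pseudogenes. RN7SL1, the signal recognition particle RNA, and TERC, the RNA template of telomerase, had a class of their own. A further 83 rows that carry the ncRNA key in the deposited table are protein coding in that newer table. All but 16 of the 3315 have only a LOC number as a name. Chromosome 1 held 532 of them, 21.0% of its rows, and chromosome 28 held 31 (9.54%). On scaffolds without a chromosome lay 57, which cannot be assigned to an autosome. Chromosome names here are those of GRCg7b, and positions are those of the deposited table, for which the submitters' processing notes name GRCg6a.

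Most autosomal noncoding RNA genes were detected at very low levels. A read was present in all 14 libraries for 1641 of them (49.5%), against 12979 of the 15316 other rows (84.7%). The median level was 0.119 CPM, with quartiles of 0.0291 and 0.607 CPM, against 4.19 CPM and quartiles of 0.493 and 17.6 CPM in the other rows. Per kilobase of gene span, which includes introns, the medians were 0.0148 CPM and 0.256 CPM in the other rows. In 516 noncoding genes (15.6%) no library rose above 3 reads, against 587 other rows (3.83%). A mean of at least 1 CPM was reached by 615 (18.6%), one of at least 10 CPM by 92 (2.78%) and one of at least 100 CPM by 6.

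**Figure D1:**
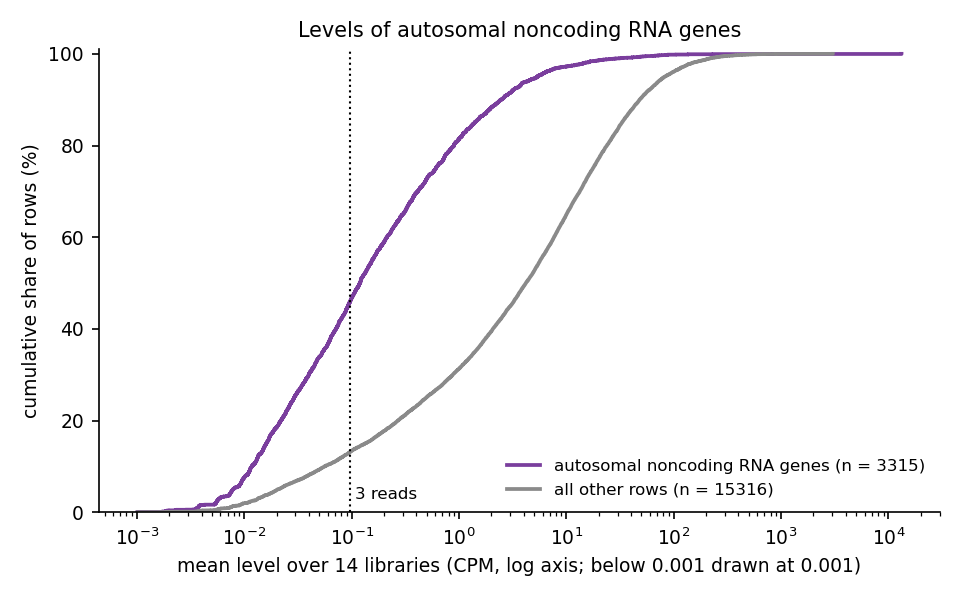
Cumulative share of rows (y axis, %) by mean level over 14 libraries (x axis, CPM, log axis) for 3315 autosomal noncoding RNA genes (purple) and 15316 other rows (grey). The dotted line marks the level of 3 reads in the shallowest library, 0.0973 CPM; the purple curve lies to the left, with a median of 0.119 CPM against 4.19 CPM.

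A few noncoding genes carried most of the noncoding reads. The rows of the deposited table held only 30.3 to 33.3% of each library's CPM, and shares of listed CPM are shares of that part. The 3315 genes together held 6.22 ± 0.402% of the listed CPM in lens libraries and 5.92 ± 0.393% in control libraries (SD, n = 7 each). The ranges of 5.71 to 6.89% and 5.43 to 6.52% overlap. Per library these genes summed to 16723 to 22201 CPM. RN7SL1 alone held 4.33 ± 0.484% in lens libraries and 4.05 ± 0.404% in control libraries (SD, n = 7 each). Without it the rest held 1.88 ± 0.0983% in lens libraries and 1.87 ± 0.0705% in control libraries (SD, n = 7 each). The 10 genes with the highest levels held 75.1 to 81.9% of all noncoding CPM, depending on the library.

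RN7SL1 took the most reads of any row in the table, 4.36 times the next, not corrected for length. It spans 57738304 to 57738594 on chromosome 5, inside the gene LRR1 on the same strand. Its level ran from 11167 through a median of 13758 to 16543 CPM in lens libraries, and from 10875 through 13205 to 14640 CPM in control libraries. The groups overlapped over most of that range, and the log2 fold change was 0.07 (SE 0.10, limma adjusted p = 0.80). LRR1 itself had 36.1 ± 11.4 CPM in lens libraries and 32.2 ± 4.40 CPM in control libraries (SD, n = 7 each).

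OIP5-AS1, a conserved lncRNA known as Cyrano that in mouse directs the decay of the microRNA miR-7, came eighth of all rows by reads, not corrected for length. It spans 24775545 to 24790307 on chromosome 5, with the nearest gene of another kind, CHP1, at a distance of 1838 bases. Lens libraries ranged from 807 through a median of 842 to 864 CPM, and control libraries from 794 through 801 to 855 CPM. It was also among the steadiest genes measured: its coefficient of variation (CV, SD over mean, pooled within groups) was 2.52%, the fifth lowest of 11132 rows with a mean of at least 1 CPM. The log2 fold change was 0.05 (SE 0.04, limma adjusted p = 0.644).

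The other 4 genes above 100 CPM were LOC107054778, which has no match in the newer table, the lncRNA LOC107053920 and the snoRNAs LOC112530237 and LOC112530098. LOC107054778 (chromosome 19, 1677630 to 1713879) lies inside AUTS2, a neurodevelopmental gene, on the same strand, and had 225 ± 11.1 CPM in lens libraries and 238 ± 9.24 CPM in control libraries (SD, n = 7 each; log2 fold change -0.08, limma adjusted p = 0.417). AUTS2 had a log2 fold change of -0.25 (limma adjusted p = 0.149). LOC107053920 (chromosome 8, 2137472 to 2409335) had 136 ± 10.3 CPM in lens libraries and 139 ± 8.89 CPM in control libraries (SD, n = 7 each). In both genes the groups overlapped. Next in order were LOC112532495, 3700 bases from LRRC4C, LOC112531520 inside ATP11A, LOC107055713, which lies 33323 bases from any row of another kind, and LOC107051614, inside ZDHHC8. They averaged 78.2 to 87.9 CPM, with CVs of 5.84 to 7.26%. TERC, at the other end, averaged 0.0303 CPM in lens and 0.0487 CPM in control libraries, means below the level of 3 reads, and was not tested.

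The 112 small structured RNAs were those whose GRCg7b class is snoRNA, small nuclear RNA, other small ncRNA, signal recognition particle RNA or telomerase RNA. Their median level was low, 0.187 CPM, with quartiles of 0.0440 and 1.94 CPM, against a median of 0.119 CPM over all 3315 genes. In 109 of them the span equals the RefSeq gene length, so their levels can be compared per length. The median was 0.755 CPM per kilobase over 70 snoRNAs and 5.41 CPM per kilobase over 29 small nuclear RNAs, against 45612 CPM per kilobase for RN7SL1. Levels differed between length classes. The 15 with a span above 200 bases had a median of 126 CPM per kilobase, against 0.411, 1.31 and 0.387 CPM per kilobase in the 8 of up to 100, the 68 of 100 to 150 and the 21 of 150 to 200 bases. Library preparation recovers short RNAs unevenly, and its part in this pattern was not tested.

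Of the 112 small RNAs, 80 overlapped a row of another kind on the same strand, in 59 genes that are called hosts here. Such a position is usual for snoRNAs, but the 80 also include RN7SL1 and small nuclear RNAs such as LOC112531646. After RN7SL1 in LRR1, LOC112530237 in RCC1, a regulator of the Ran GTPase, had the highest level, 661 CPM per kilobase. LOC112530098 in TEX14 had 489 CPM per kilobase. LOC112532460 in PTCD3 had 236, LOC112531645 in NCAPD2 had 232 and LOC112533096 in KPNA4 had 204 CPM per kilobase. Other hosts were the ribosomal protein genes RPS3, with 3 small RNAs, and RPL27A, and also NOP56 and DKC1, which encode core proteins of snoRNA particles. EIF4G2, a translation factor gene at 232 CPM, held LOC112532597, which stood at 56.3 CPM per kilobase.

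Some small RNA rows share all of their values. LOC112531610 and LOC112531646 (chromosome 1, 191 bases each) had identical CPM in every library, 19.8 CPM on average, and 5 rows of 115 bases between 21092790 and 21119487 on chromosome 8 had the same 1.07 CPM each. In all, 74 autosomal noncoding rows had values identical to another row, and 7 of them passed the filter on low values. Identical rows are not separate measurements, and their levels are uncertain.

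The levels of several snoRNAs varied widely between libraries of the same group. LOC112530237 ranged from 24.3 through a median of 104 to 264 CPM in lens libraries and from 16.7 through 120 to 224 CPM in control libraries, a CV of 65.8%. The snoRNA LOC112532454 inside NOP56 ranged from 0.324 through 2.22 to 4.06 CPM in lens libraries and from 0.0955 through 2.63 to 6.74 CPM in control libraries. NOP56 itself had 2.47 ± 0.582 CPM in lens and 3.12 ± 1.03 CPM in control libraries (SD, n = 7 each). The 5 libraries with W-linked RNA lay at 120 to 224 CPM for LOC112530237 and at 1.99 to 6.74 CPM for LOC112532454. The 9 libraries lacking it reached both high and low values, 16.7 to 264 CPM and 0.0955 to 4.06 CPM for these genes in the same order, and its part in the spread was not tested. LOC112530098 was steadier, at 73.0 to 120 CPM in lens and 82.2 to 135 CPM in control libraries.

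DKC1, the pseudouridine synthase of the particles that carry one snoRNA class, holds 3 small RNAs on the same strand. The snoRNA LOC112532456 (chromosome 4, 2118873 to 2119120) ranged from 20.4 through a median of 32.6 to 74.0 CPM in lens libraries and from 10.8 through 21.2 to 32.1 CPM in control libraries. The lens values reached higher and the groups overlapped. The log2 fold change was 0.81 (SE 0.29), which did not pass over all genes (limma adjusted p = 0.232). Its neighbour LOC112532457 ranged from 17.6 through 37.4 to 64.5 CPM in lens libraries and from 21.3 through 32.1 to 47.8 CPM in control libraries, a log2 fold change of 0.08 (SE 0.25, limma adjusted p = 0.917). DKC1 had 5.31 ± 0.635 CPM in lens and 4.83 ± 0.839 CPM in control libraries (SD, n = 7 each; limma adjusted p = 0.623), and the third small RNA, LOC112532451, stayed at or below 0.0998 CPM.

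Genes for proteins that make and process noncoding RNA were measured as RNA, not as protein. Of 40 such genes 35 were in the table and tested, and 0 passed by limma, with 5 at an unadjusted p under 0.05 (1 higher and 4 lower), where 13.5% of all genes tested reached that p. Their median log2 fold change was -0.04, as was that of all genes tested. The 5 were GAR1, ADAR, HEXIM1, AGO4 and UPF1, named here for that p. GAR1, a protein of snoRNA particles, had 1.48 ± 0.295 CPM in lens and 1.14 ± 0.244 CPM in control libraries (SD, n = 7 each; log2 fold change 0.21, limma adjusted p = 0.331). ADAR, an RNA editing enzyme, had 6.26 ± 1.27 CPM in lens and 8.06 ± 0.880 CPM in control libraries (log2 fold change -0.33, limma adjusted p = 0.196). HEXIM1, which works with a small nuclear RNA to restrain transcription elongation, had 1.103 ± 0.375 CPM in lens and 1.73 ± 0.411 CPM in control libraries (log2 fold change -0.38, limma adjusted p = 0.196). AGO4, a carrier of small RNAs, and UPF1, a helicase of RNA decay, stood at -0.13 each (limma adjusted p = 0.342 and 0.346). DICER1, which cuts microRNAs out of their precursors, stood at -0.0018.

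By position, 1168 of the 3315 genes (35.2%) overlapped a row of another kind on the opposite strand only, 216 (6.52%) overlapped one on the same strand, and 319 (9.62%) started within 2000 bases of a gene transcribed away from them. Another 557 (16.8%) lay within 10000 bases of such a row and 1031 (31.1%) lay farther away. The remaining 24 were on sequences with no other kind of row. In reads not corrected for length, the median level was 0.909 CPM in those overlapping on the same strand, against 0.128 CPM on the opposite strand, 0.170 CPM at divergent starts, 0.121 CPM near and 0.0812 CPM far from other rows. The counting is not stated to use strand in the sources used here. Reads of the 1168 genes overlapping on the opposite strand can therefore not be fully told apart from those of their partners. For the 216 overlapping on the same strand, use of strand would not separate the reads either. The levels of both sets are uncertain.

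Spread between libraries was set beside that of other rows in the same range of level, since low levels carry more counting error. At 0.5 to 1 CPM the median CV was 32.4% in 290 noncoding genes and 32.1% in 945 other rows, and at 1 to 2 CPM it was 24.4% and 24.3%. Between 2 and 100 CPM the noncoding genes spread more. At 5 to 10 CPM the median CV was 16.8% in 87 noncoding genes and 13.9% in 1877 other rows, at 10 to 30 CPM 13.6% in 59 and 10.6% in 2840, and at 30 to 100 CPM 12.3% in 27 and 8.23% in 1929. Without the small structured RNAs the noncoding values in these 3 ranges were 16.6%, 13.1% and 9.73%. At 100 to 1000 CPM the medians were 7.04% in 5 noncoding genes and 7.19% in 591 other rows. These are descriptions with no test, since genes are not replicates. Levels were not matched within a range, and the part of level in these differences was not tested.

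**Figure D2:**
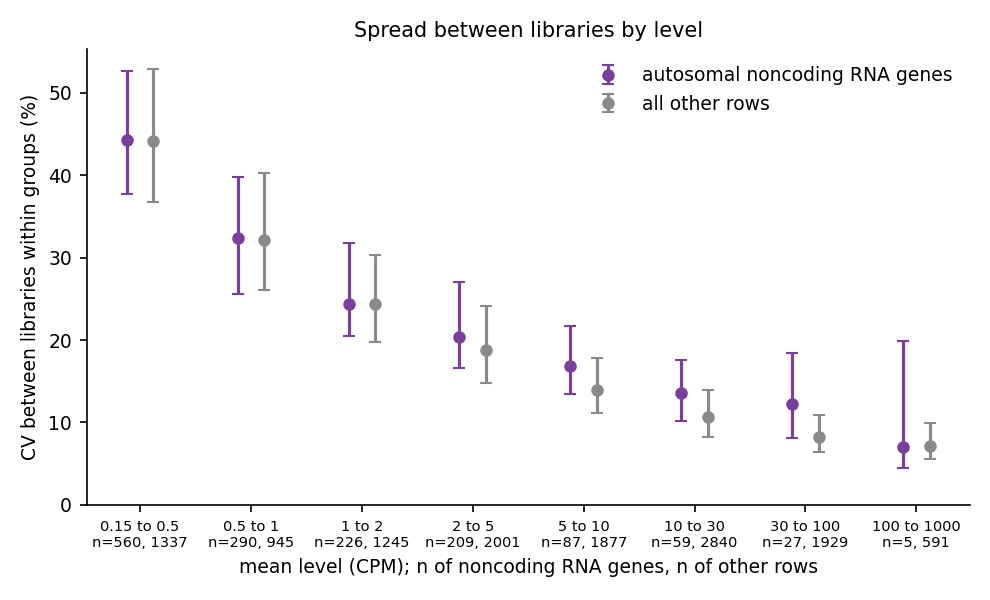
Median CV between libraries within groups (y axis, %; bars are quartiles over genes) for noncoding RNA genes (purple) and other rows (grey) in ranges of mean level (x axis, CPM). The medians coincide below 2 CPM, and at 30 to 100 CPM they are 12.3% for 27 noncoding genes and 8.23% for 1929 other rows; RN7SL1 lies above the last range.

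A wide range was found in a small set. Among tested genes with a mean of at least 1 CPM, the highest library exceeded the lowest by more than 10-fold in 18 of 614 noncoding genes (2.93%) and in 23 of 10487 other rows (0.219%), with any value under 0.0973 CPM set to it. These sets were not matched for level: 226 of the 614 and 1245 of the 10487 averaged 1 to 2 CPM. Low levels carry more counting error, and the part of level in this difference was not tested. Of the 18, 3 were small structured RNAs and 0 lay on scaffolds. LOC101748259 (chromosome 27, 2358036 to 2375619) was at 2.17 to 5.13 CPM in 5 libraries, lens replicates 3 and 6 and control replicates 1, 5 and 6, and at 0.0486 to 0.549 CPM in the other 9. None of those 5 libraries held W-linked RNA. LOC107051651, 10274 bases from CDKAL1 on chromosome 2, stood at 4.67 to 6.76 CPM in lens libraries and at 2.88 to 6.12 CPM in control libraries other than control replicate 3, where it was 0.131 CPM. GRXCR2, a row that carries the symbol of a coding gene but is annotated as a lncRNA, ranged from 0.486 to 5.04 CPM in lens and from 0.676 to 5.65 CPM in control libraries.

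LOC101748699 (chromosome 1, 73789895 to 73796863, 34194 bases from the potassium channel gene KCNA6) had the largest CV of the noncoding genes with a mean of at least 1 CPM, 136%. It stood at 2.76 to 3.33 CPM in 5 libraries, lens replicates 3, 6 and 7 and control replicates 4 and 7, and at 0.0393 to 0.252 CPM in the other 9. No library lay between. W-linked RNA was present in 2 of those 5. With 6 libraries above the minimum, where 7 were needed, it did not pass the filter and was not tested. KCNA6 averaged 78.7 CPM.

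**Figure D3:**
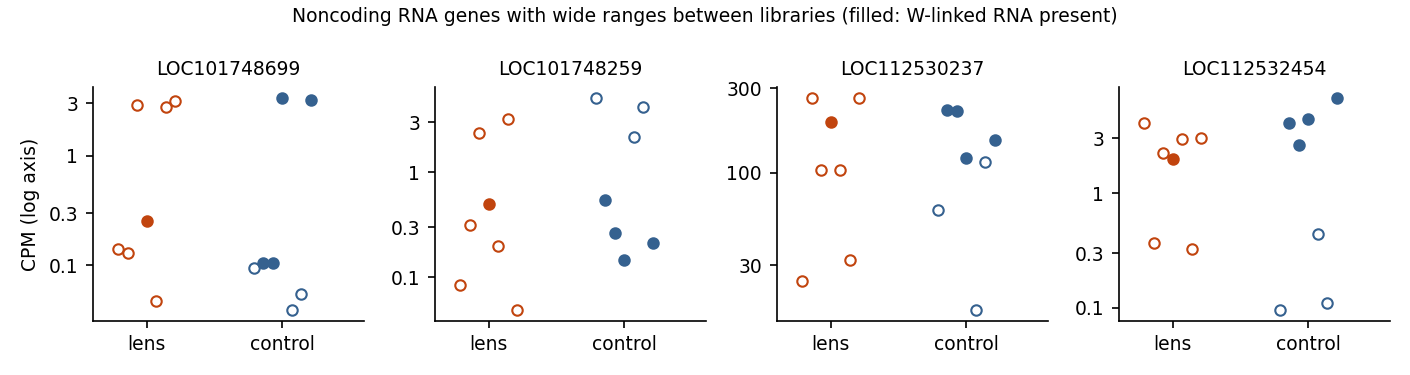
Level per library (y axis, CPM, log axis) of 2 lncRNAs, LOC101748699 and LOC101748259, and 2 snoRNAs, LOC112530237 and LOC112532454, in 7 lens (orange) and 7 control (blue) libraries; filled points hold W-linked RNA. High and low libraries occur in both groups: LOC101748699 is at 2.76 to 3.33 CPM in 5 libraries and at 0.252 CPM or less in the other 9.

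The steadiest noncoding genes after OIP5-AS1 were LOC112532087 (CV 4.2%), 941 bases from PREP, and LOC107054778 (4.44%), LOC107055713 (5.84%) and LOC112532896 (5.89%), the last inside PTBP2, a neuronal splicing regulator. LOC112532087 had 14.8 ± 0.425 CPM in lens and 14.5 ± 0.755 CPM in control libraries, and LOC112532896 had 19.1 ± 1.01 CPM in lens and 18.2 ± 1.17 CPM in control libraries (SD, n = 7 each).

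Lens and control retinas were compared because the study asks what changes in the retina as an eye adjusts to defocus. Of the 3315 noncoding genes 1474 (44.5%) passed the filter on low values, which asks for at least 7 of 14 libraries at 0.152 to 0.167 CPM or more, depending on the library. Of the other rows 12785 (83.5%) passed. No noncoding gene passed the filter through 1 group alone. The 1841 that did not pass averaged at most 1.16 CPM. All log2 fold changes were taken after adding 1 CPM, so changes of genes at low levels are understated. Of the 1474, 2 changed at a limma adjusted p under 0.05, both lower in lens retinas (0.136%, against 0.0771% of all genes tested in either direction, 0.0701% lower and 0.00701% higher). At an unadjusted p under 0.05 there were 127, or 8.62%, against 13.5% of all genes tested. Of these, 29 were higher (1.97% against 3.03%) and 98 lower (6.65% against 10.5%). That split depended on the scaling: it was 48 higher and 71 lower after median ratio scaling, and 80 higher and 38 lower after quantile normalization. It also depended on W-linked RNA, which was present in more control libraries. With that RNA as a covariate 53 were higher and 110 lower, 11.1% of the noncoding genes against 11.2% of all genes tested. In the 9 libraries lacking it 58 were higher and 73 lower, 8.89% against 8.08%. The median log2 fold change was -0.03 over the noncoding genes and -0.04 over all genes tested, and 0.017 and 0.0034 after quantile normalization. Which of these medians was lower depended on the settings. With 0.1 CPM added they were -0.067 over noncoding and -0.054 over all genes, and after median ratio scaling -0.0084 and -0.0026. In the 9 libraries lacking W-linked RNA they were -0.0066 and -0.0040. The noncoding genes and all genes tested were not matched for level. Among tested genes averaging 0.15 to 5 CPM, the medians were -0.030 in 1285 noncoding genes and -0.062 in 5528 other rows. In that range 8.56% of the noncoding genes and 11.1% of the other rows had an unadjusted limma p under 0.05. Within it the levels still differed: 560 of these noncoding genes and 1337 of these other rows averaged 0.15 to 0.5 CPM. The part of level in these differences was not tested. In the 57 tested small structured RNAs the median log2 fold change was 0.0014, and 0 passed by limma, with 2 at an unadjusted p under 0.05.

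**Figure D4:**
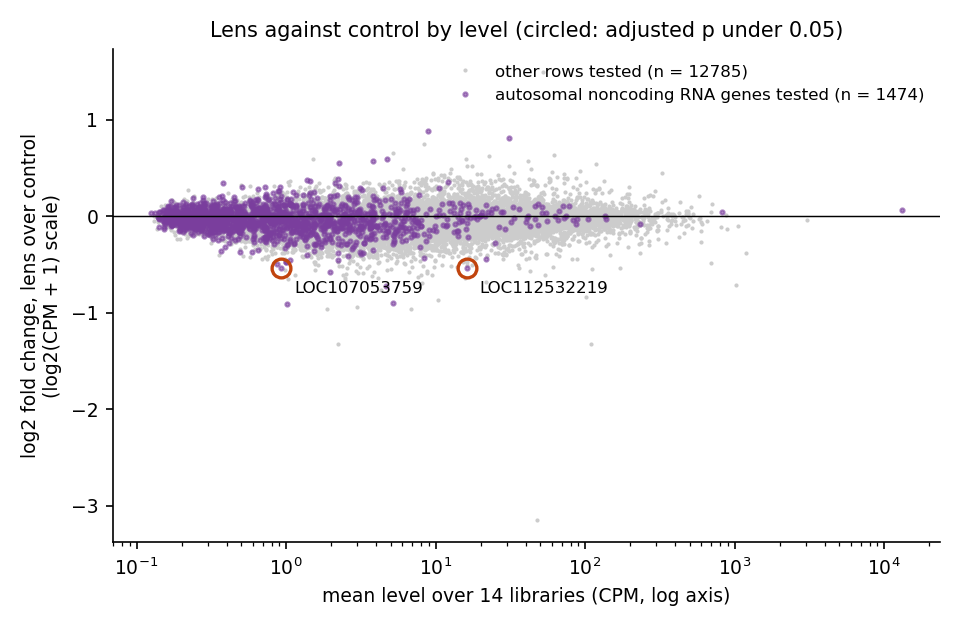
Log2 fold change of lens over control (y axis, log2(CPM + 1) scale) by mean level (x axis, CPM, log axis) for 1474 tested noncoding genes (purple) and 12785 other tested rows (grey). The 2 noncoding genes that passed are circled, at -0.53 (LOC107053759) and -0.54 (LOC112532219); the noncoding genes cluster at the low end of the range.

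LOC107053759, a lncRNA on the plus strand of chromosome 6 (32631226 to 32644723), has no row of another kind nearer than GPR26, an orphan receptor gene 33509 bases away. It ranged from 0.394 through a median of 0.532 to 0.875 CPM in lens libraries and from 0.999 through 1.27 to 1.55 CPM in control libraries. Every lens library lay below every control library. The log2 fold change was -0.53 (SE 0.08, limma adjusted p = 0.0332). GPR26 stood at -0.16 (SE 0.09, limma adjusted p = 0.416); the difference between the 2 was not tested. With W-linked RNA as a covariate the value of LOC107053759 was -0.51 (limma adjusted p = 0.0363), and in the 9 libraries lacking that RNA it was -0.57 (limma adjusted p = 0.12).

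LOC112532219, on the plus strand of chromosome 3 (43232166 to 43247979), lies inside PDE10A, a phosphodiesterase of cyclic nucleotides, on the same strand. It ranged from 10.03 through a median of 13.5 to 15.3 CPM in lens libraries and from 17.1 through 18.6 to 21.7 CPM in control libraries. The groups did not overlap. The log2 fold change was -0.54 (SE 0.09, limma adjusted p = 0.034). PDE10A averaged 46.1 CPM and stood at -0.20 (SE 0.05, limma adjusted p = 0.14). PDE10A was lower too but did not pass, and the difference between it and LOC112532219 was not tested. Reads of LOC112532219 cannot be fully told apart from those of PDE10A, so its level and its change are uncertain. With W-linked RNA as a covariate LOC112532219 stood at -0.63 (limma adjusted p = 0.00843), and in the 9 libraries lacking it at -0.55 (limma adjusted p = 0.12).

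Both calls depended on single libraries. Without lens replicate 1 or 5 or control replicate 1, 4, 6 or 7 neither gene passed, and the count became 0. The count over all genes tested, 11 with all libraries, became 0 in each of these settings too. Without lens replicate 3 or 4 or control replicate 3 the noncoding count became 1, LOC107053759, against 3, 1 and 1 over all genes. Without lens replicate 7 or control replicate 2 it became 3, with 1 gene higher, against 16 and 10 over all genes. Log2 fold changes stayed between -0.57 and -0.50 for LOC107053759 and between -0.58 and -0.48 for LOC112532219, while adjusted p reached 0.0888 and 0.0892 by limma. The signs were fixed by the absence of overlap. The count was 0, over noncoding genes and over all genes, after quantile normalization and with no filter on low values. In these settings each of the 2 genes had a limma adjusted p of 0.0586 and 0.0515. There, 118 noncoding genes (8.01%, against 13.1% of all genes) and 217 (6.55%, against 11.5%) had an unadjusted p under 0.05.

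**Figure D5:**
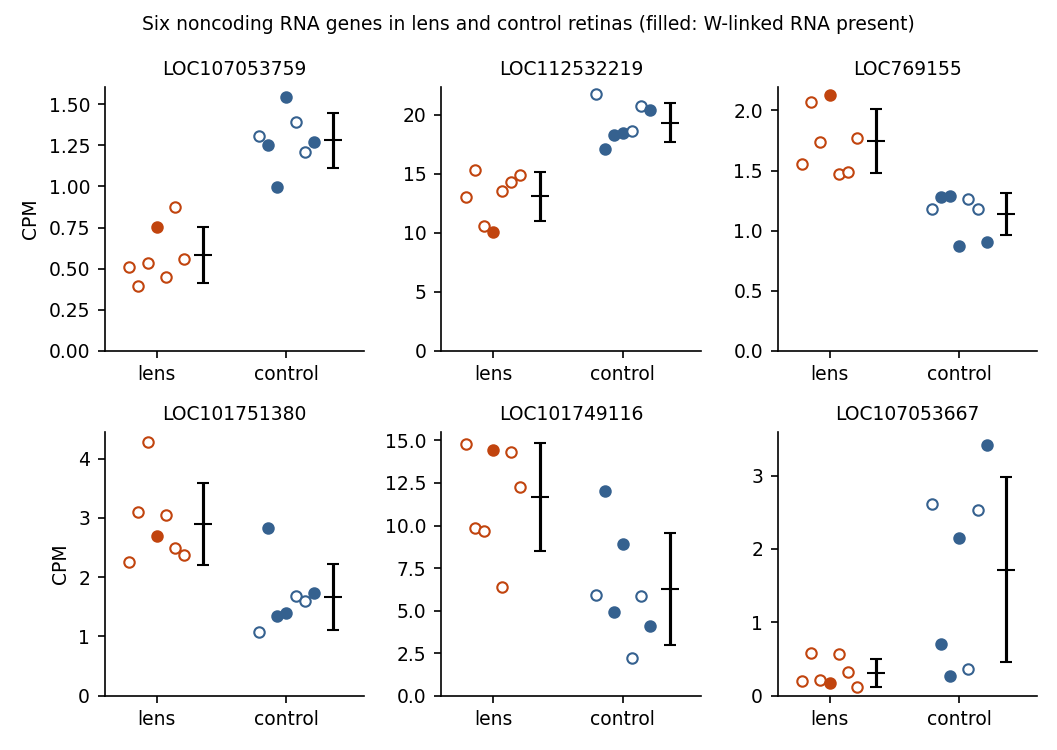
Level per library (y axis, CPM) of 6 noncoding RNA genes in 7 lens (orange) and 7 control (blue) libraries; filled points hold W-linked RNA, and bars beside the points are mean ± SD. Groups do not overlap for LOC107053759, LOC112532219 and LOC769155, and overlap for LOC101751380, LOC101749116 and LOC107053667.

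The groups did not overlap in 3 of 1474 tested noncoding genes (0.204%), against 0.266% of all genes tested. The third was LOC769155 on chromosome 4 (62862319 to 62887795), opposite to FGL1. It ranged from 1.47 through a median of 1.74 to 2.13 CPM in lens libraries and from 0.869 through 1.18 to 1.29 CPM in control libraries. Its log2 fold change of 0.36 (SE 0.08) did not pass (limma adjusted p = 0.0991). FGL1 stood at 0.07 (limma adjusted p = 0.82).

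None of the remaining genes with the smallest p-values passed. LOC101751380 (chromosome 2, 34144816 to 34253100), which starts away from GALNT15 at a distance of 1787 bases, had 2.89 ± 0.690 CPM in lens and 1.66 ± 0.558 CPM in control libraries (SD, n = 7 each). Its log2 fold change was 0.55 (SE 0.13, limma adjusted p = 0.102), and without control replicate 2 it was 0.64 and passed (limma adjusted p = 0.0361). GALNT15 stood at -0.08. LOC107054270, opposite to MMP2, a matrix metalloproteinase, had 1.71 ± 0.428 CPM in lens and 1.07 ± 0.143 CPM in control libraries (SD, n = 7 each), a log2 fold change of 0.37 (limma adjusted p = 0.132). MMP2 stood at 0.11.

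Of those with lower values in lens retinas, LOC107052240 (chromosome 18, 8739089 to 8892905) runs across SOX9, a transcription factor of Müller glia, on the opposite strand. It ranged from 1.92 through a median of 2.92 to 3.24 CPM in lens libraries and from 3.09 through 3.76 to 4.63 CPM in control libraries (log2 fold change -0.39, SE 0.10, limma adjusted p = 0.144). SOX9 itself averaged 0.405 CPM, with 0.329 ± 0.0932 CPM in lens and 0.482 ± 0.356 CPM in control libraries (SD, n = 7 each). Its log2 fold change of -0.13 is understated at this level by the added 1 CPM. The difference between SOX9 and LOC107052240 was not tested. LOC112530214, 28188 bases from CITED4, had 0.302 ± 0.140 CPM in lens and 0.688 ± 0.179 CPM in control libraries (SD, n = 7 each). It stood at -0.38 (limma adjusted p = 0.0892). LOC112532986, 1988 bases from the growth factor gene HGF, had 0.194 ± 0.108 CPM in lens and 0.537 ± 0.222 CPM in control libraries (SD, n = 7 each). It stood at -0.36 (limma adjusted p = 0.107), with HGF at 0.0014. Lens values of these genes went down to 0.0973 and 0.0282 CPM, at or below 3 reads. The added 1 CPM understates their changes. LOC107051725, 5559 bases from SLC4A4, a bicarbonate cotransporter, stood at -0.47 (limma adjusted p = 0.12) and SLC4A4 at -0.16 (limma adjusted p = 0.222).

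Above a level minimum, the largest log2 fold changes, that of LOC112532219 apart, were in genes with a wide spread. This order holds after adding 1 CPM. In mean CPM, LOC107053759 changed by -54.6%, against -46.6% in LOC107053007, which is named below. LOC107053667 (chromosome 6, 18422690 to 18436024), opposite to CYP2C23a, ranged from 0.122 through a median of 0.218 to 0.577 CPM in lens libraries and from 0.263 through 2.15 to 3.42 CPM in control libraries. All lens libraries were low, and 3 of 7 control libraries were below 1 CPM. The log2 fold change was -0.91 (SE 0.24, limma adjusted p = 0.144). LOC107053007 on chromosome 1 had 3.62 ± 2.56 CPM in lens and 6.77 ± 2.73 CPM in control libraries (SD, n = 7 each; log2 fold change -0.90, limma adjusted p = 0.235), and -0.42 in the 9 libraries lacking W-linked RNA. LOC107054135, 1728 bases from SOX5, stood at -0.72 (limma adjusted p = 0.276), and LOC101751990 on chromosome 4 at -0.58 (limma adjusted p = 0.163).

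On the higher side, LOC101749116 (chromosome 2, 105154780 to 105180412), a lncRNA 254311 bases from the nearest gene of another kind, CDH2, ranged from 6.42 through a median of 12.3 to 14.8 CPM in lens libraries and from 2.19 through 5.85 to 12.1 CPM in control libraries. Its log2 fold change was 0.88 (SE 0.24, limma adjusted p = 0.156), and 1.1 with W-linked RNA as a covariate (limma adjusted p = 0.122). LOC107051651 stood at 0.60 (limma adjusted p = 0.372), a value that was 0.27 without control replicate 3 and 0.39 in the libraries lacking W-linked RNA. LOC112531974, on chromosome 2, had 4.76 ± 1.79 CPM in lens and 2.86 ± 1.18 CPM in control libraries (SD, n = 7 each; log2 fold change 0.57, limma adjusted p = 0.237), and a log2 fold change of 0.37 in the libraries lacking W-linked RNA.

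By position, the median log2 fold change was -0.0016 in the 153 tested genes that overlap another row on the same strand and -0.0016 in the 360 that lie far from any. It was -0.04 in 541 that overlap on the opposite strand, in 162 with divergent starts and in 250 that lie near. An unadjusted p under 0.05 was reached by 5.88%, 5.00%, 10.4%, 8.64% and 12% of these sets, in that order, against 13.5% of all genes tested. The sets were not matched for level. Their tested genes had median levels of 2.58, 0.580, 0.699, 0.744 and 0.856 CPM, in the same order. Of all 216 genes overlapping on the same strand, 80 were small structured RNAs. The parts of level and RNA class in these differences were not tested.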

How the data were processed

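Retinal RNA was measured in 14 libraries. The tools STAR and Partek and the build GRCg6a are named in the submitters' processing notes; versions, annotation, counting and use of strand are not given in the sources used here. The deposited table holds CPM made by the authors plus an offset of 0.0001 found in the values; with it subtracted, 93.0% of values up to 200 reads lay within 0.02 of a whole multiple of 1 step. Groups followed the treatment label. Values were analysed as log2(CPM + 1) with limma 3.58.1 in R 4.3.3 (lmFit, eBayes with trend), two-sided, on 14259 rows, with Benjamini-Hochberg adjustment over all of them and a threshold of 0.05. Rows were tested when at least 7 libraries reached the filter level, 0.152 to 0.167 CPM. W-linked RNA was called at over 10 CPM of HINTW. No pairing was used, and the procedure was tested on simulated data.

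Members and lists were chosen with earlier results of these data known. Genes named are those that passed, the 10 smallest p-values, the 5 largest rises and falls above a level minimum, the 10 highest levels, the 5 largest and smallest CVs, and listed symbols (35 in all); partners, small RNAs with hosts, and genes named for wide ranges were added after their values were seen. Alternatives were pseudocounts of 0.1 and 5, filters, scalings, covariates and leaving out each library, with voom, identical rows counted once and named chromosomes added later. Tables and figures used Python 3.11.15, pandas 2.3.3 and matplotlib 3.10.9.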

Additional observations from a re-analysis of the deposited data

Results flagged for a closer look

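Among 74 groups of 7 libraries checked, 7 held a library whose distance to the nearest other library exceeded 0.568 of the group's range. Chance flags about 1 in 20 groups of unselected, normally distributed values. Genes here were in part named for their spread, fold change or p-value in the same libraries, so that rate does not apply to them. LOC112532830, which overlaps SDPR on chromosome 7, stood at 4.18 CPM in lens replicate 7, where the next library had 1.59 CPM, and at 7.30 CPM in control replicate 7, where the next had 2.13 CPM. LOC101751380 stood at 4.28 CPM in lens replicate 3 and at 2.82 CPM in control replicate 2, each above the rest of its group. LOC107054135 stood at 6.34 CPM in lens replicate 3, with the next at 3.47 CPM. LOC107051725 stood at 1.34 CPM in lens replicate 2, with the next at 0.705 CPM. LOC112532986 stood at 1.02 CPM in control replicate 1, with the next at 0.552 CPM.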

How the results depend on the processing

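No paired analysis was possible because lens and control samples share no code number. The 2 noncoding genes called, of 11 over all genes, became 1 after median ratio scaling (LOC107053759), where all genes gave 1 too. Among genes that overlap no other gene 1 was called. The count was 0 with no filter on low values, after quantile normalization and among libraries without W-linked RNA. Over all genes these settings gave 0, 0 and 2. In that order, 217, 118 and 131 noncoding genes had an unadjusted limma p under 0.05. These were 6.55%, 8.01% and 8.89%, against 11.5%, 13.1% and 8.08% of all genes. Leaving out 1 library gave 0 to 3 noncoding genes called, against 0 to 18 over all genes. Over all tested noncoding genes the median log2 fold change was -0.067 with a pseudocount of 0.1, -0.070 with voom and 0.017 after quantile normalization. Over all genes tested it was -0.054, -0.058 and 0.0034, in that order. The median level of 0.741 CPM over tested genes was 0.119 with no filter, 1.90 with a stricter filter and 0.671 CPM without overlapping genes. The median residual SD of 0.174 was 0.0929 with no filter, 0.203 with a stricter filter and 0.164 among libraries without W-linked RNA. It changes by construction with the scale, to 0.402 with a pseudocount of 0.1, 0.0576 with a pseudocount of 5 and 1.01 with voom.

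Among 33 tested genes named, 7 with values smaller than their SE turned sign under some settings, none of them called. LOC107053920 stood at 0.021 after median ratio scaling and 0.0051 with the W-linked RNA covariate, LOC112530098 at 0.024 after median ratio scaling, 0.0015 after rescaling to the same sum and 0.013 with that covariate, LOC112532495 at 0.018 after median ratio scaling and 0.041 among libraries without W-linked RNA, and LOC107055713 at 0.014 after median ratio scaling. LOC112532454, at 0.0083 in all libraries, stood at -0.054 with a pseudocount of 5, 0.63 with the W-linked RNA covariate and 1.21 among libraries without W-linked RNA, LOC112530237, at 0.0079, stood at 0.67 and 0.88 in the last 2 of these, and LOC112532830 at 0.15 among libraries without W-linked RNA. Leaving out 1 library gave -0.41 to 0.35 for LOC112530237, -0.081 to 0.051 for LOC112530098, -0.22 to 0.25 for LOC112532454 and -0.31 to 0.080 for LOC112532830. The cause was not tested. The planned count test was not run, since the deposited values are not counts. Depth limits the 516 genes at or under 3 reads in every library.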
